A study of Mus musculus with 6 samples.

Results

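Cholesterol synthesis, uptake and efflux were followed through 28 listed genes in cultured mouse podocytes, the epithelial cells whose foot processes wrap the glomerular capillaries. The genes were taken by name and are described in the order of the pathway. A gene counted as measured where a probe set of the array was annotated with that gene alone, and the brightest such set over the 6 arrays was used. This gave 25 measured genes among 30745 genes on the array. The level of Acat2 was not analysed here, and the probe sets of Tm7sf2 and Srebf1 also carried another gene's name and were not used. The probe set of Msmo1 listed its older symbol beside the current one and was kept.

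The study compared a conditionally immortalized wildtype podocyte line with a line labelled as knockout for both Nck1 and Nck2, adaptor genes whose proteins couple phosphorylated receptors such as nephrin to the actin cytoskeleton. Cells of each line were kept on type I collagen and left to differentiate over 10 days, and total RNA from 3 replicates of each, stated by the submitters to be independent, was hybridized to Affymetrix arrays (wildtype arrays 1 to 3 and knockout arrays 1 to 3). Conditional immortalization means that growth is driven by a transgene that is switched off for differentiation, and it applies to both lines. Each genotype was a single line, so differences between genotypes and other differences between these lines cannot be told apart, and p-values measure the spread among replicates of 1 line. Whether a line was 1 clone is not given in the sources used here.

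The lines differed in more than Nck. Nck1 fell by 0.51 in knockout on the log2 scale (limma adjusted p = 0.00393), and Nck2 differed by -0.24 without passing (limma adjusted p = 0.0942), with both means within the background range described next. The Nck1 probe set still read 8.12 ± 0.06 (SD, n = 3) in knockout, against 8.63 ± 0.10 in wildtype. These arrays therefore do not show a loss of either transcript, and whether the probes lie in a deleted stretch is not given in the sources used here. Xist, made from the inactive X chromosome of female cells, fell by 6.18 and the Y-linked Uty rose by 4.69 in knockout, so the lines also differed in their sex chromosomes. Of 7 measured podocyte markers, Nphs1, Wt1 and Ptpro were in both lines no brighter than the brightest of the background control probe sets (mean log2 intensity 7.78), which is called the background range here, while Synpo, Podxl, Cd2ap and Thsd7a were brighter. Of the 7, Thsd7a fell by 1.09 (limma adjusted p = 0.000629) and 6 did not pass, and the mean level over all 7 ran from 8.29 to 8.31 in wildtype and from 8.13 to 8.19 in knockout. Markers of other cell types differed as well. Over all genes 5.06% were higher and 6.89% lower at a limma adjusted p under 0.05. Above the background range these shares were 10.1% and 13.5%. Counts in lists as small as these are not read as results about a cell type. The mean level over 8 smooth muscle and pericyte markers ran from 7.67 to 7.76 in wildtype and from 8.80 to 8.93 in knockout, with Acta2, Tagln, Cnn1 and Pdgfrb higher and the other 4, Mcam that was lower among them, within the background range in both lines. That over 7 fibroblast markers ran from 7.07 to 7.17 and from 8.34 to 8.44, with 3 higher and 4 within that range. That over 9 tubular markers ran from 8.99 to 9.16 and from 8.38 to 8.45, with 4 lower and 4 within that range. That over 7 endothelial markers ran from 6.14 to 6.32 and from 6.84 to 6.87, with Ptprb higher and the other 6 within that range. That over 6 macrophage markers ran from 6.83 to 6.92 and from 6.73 to 6.84, with Cd68 higher, Csf1r lower and the other 4 within that range. That over 4 parietal epithelial markers ran from 11.35 to 11.42 and from 11.08 to 11.11, with 1 higher and 2 lower. The part of these differences in the results below was not tested, and in bulk RNA fewer cells of a type and less RNA per cell cannot be told apart.

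Cells make cholesterol from acetyl-CoA through mevalonate and isoprenoid intermediates, which are condensed to squalene, cyclized to lanosterol and then trimmed and reduced to cholesterol. The transcription factor SREBP-2, encoded by Srebf2, is the main activator of these enzyme genes. It is held in the endoplasmic reticulum with its escort Scap by the Insig proteins while sterols are plentiful, and is released to the Golgi and cleaved when sterols fall. Oxysterols formed from excess cholesterol activate the LXR receptors, which induce the exporters Abca1 and Abcg1. In podocytes cholesterol is a component of the slit diaphragm's membrane domains, and lipid loading of podocytes is a recognised feature of glomerular disease.

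The stretches upstream of the genes with the largest differences that had an entry in the RefSeq promoter table are shown because SREBP target promoters are known for 3 neighbouring elements, a sterol regulatory element, a CCAAT box bound by NF-Y and a GC box bound by Sp1. Each line gives the 250 bases before the annotated start, 5′ to 3′ on the strand of the gene, from RefSeq on build GRCm38.p6. Capitals mark every match, on either strand, to TCACNCCA (a sterol regulatory element core), CCAAT and GGGCGG.
Idi1 (chr13:8885356-8885605, plus strand): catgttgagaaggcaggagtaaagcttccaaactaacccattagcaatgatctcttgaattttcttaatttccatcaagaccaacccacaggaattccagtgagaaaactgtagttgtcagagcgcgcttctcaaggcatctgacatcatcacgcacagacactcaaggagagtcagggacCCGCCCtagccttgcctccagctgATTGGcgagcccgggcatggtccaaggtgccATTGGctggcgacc
Cyp51 (chr5:4104698-4104947, minus strand): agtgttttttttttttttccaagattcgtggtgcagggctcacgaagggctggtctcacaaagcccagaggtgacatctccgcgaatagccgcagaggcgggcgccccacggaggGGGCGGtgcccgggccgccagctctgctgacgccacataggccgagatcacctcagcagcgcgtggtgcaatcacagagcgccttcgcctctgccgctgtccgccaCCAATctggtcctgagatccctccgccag
Msmo1 (chr8:64733579-64733828, minus strand): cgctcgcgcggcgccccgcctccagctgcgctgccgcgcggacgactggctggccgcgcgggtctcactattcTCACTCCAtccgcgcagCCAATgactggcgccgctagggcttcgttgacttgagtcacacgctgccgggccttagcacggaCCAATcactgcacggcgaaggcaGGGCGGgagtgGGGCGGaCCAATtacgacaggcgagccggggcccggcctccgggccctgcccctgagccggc
Insig1 (chr5:28071162-28071411, plus strand): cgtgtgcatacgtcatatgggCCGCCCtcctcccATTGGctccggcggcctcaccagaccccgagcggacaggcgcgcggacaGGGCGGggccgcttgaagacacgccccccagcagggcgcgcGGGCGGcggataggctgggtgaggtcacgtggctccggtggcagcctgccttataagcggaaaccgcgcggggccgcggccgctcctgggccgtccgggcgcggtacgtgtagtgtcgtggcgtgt
Srebf2 (chr15:82147019-82147268, plus strand): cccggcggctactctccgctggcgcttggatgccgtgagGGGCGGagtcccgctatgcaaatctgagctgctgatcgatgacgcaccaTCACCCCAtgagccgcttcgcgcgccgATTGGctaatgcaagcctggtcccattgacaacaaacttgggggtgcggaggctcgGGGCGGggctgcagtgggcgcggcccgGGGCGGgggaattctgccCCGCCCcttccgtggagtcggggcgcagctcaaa
Abca1 (chr4:53159896-53160145, minus strand): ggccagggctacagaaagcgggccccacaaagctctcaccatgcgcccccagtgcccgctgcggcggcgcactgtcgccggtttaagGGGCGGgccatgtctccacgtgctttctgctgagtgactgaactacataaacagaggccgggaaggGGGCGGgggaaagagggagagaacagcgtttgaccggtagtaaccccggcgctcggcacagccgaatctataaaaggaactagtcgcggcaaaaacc

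These 6 stretches differed in which of these letter patterns they held. Only these letters were searched, so a stretch without a match, such as Cyp51 for TCACNCCA, is not shown to lack a sterol element. Msmo1 and Srebf2 each held 1 match to the sterol element core, Msmo1 at bases -177 to -170 and Srebf2 at -162 to -155 from the start. The nearest CCAAT box lay downstream of it in both, at -160 to -156 in Msmo1 and, on the reverse strand, at -135 to -131 in Srebf2. Cyp51 held 1 CCAAT box (-29 to -25), Idi1 held 2, both on the reverse strand, and Insig1 held 1, on the reverse strand (-216 to -212). Abca1, the gene of this set that was lower in knockout, held no CCAAT match. All 6 stretches held GC boxes, with 1 in Idi1, 1 in Cyp51, 2 in Msmo1, 3 in Insig1, 4 in Srebf2 and 2 in Abca1.

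**Figure D1:**
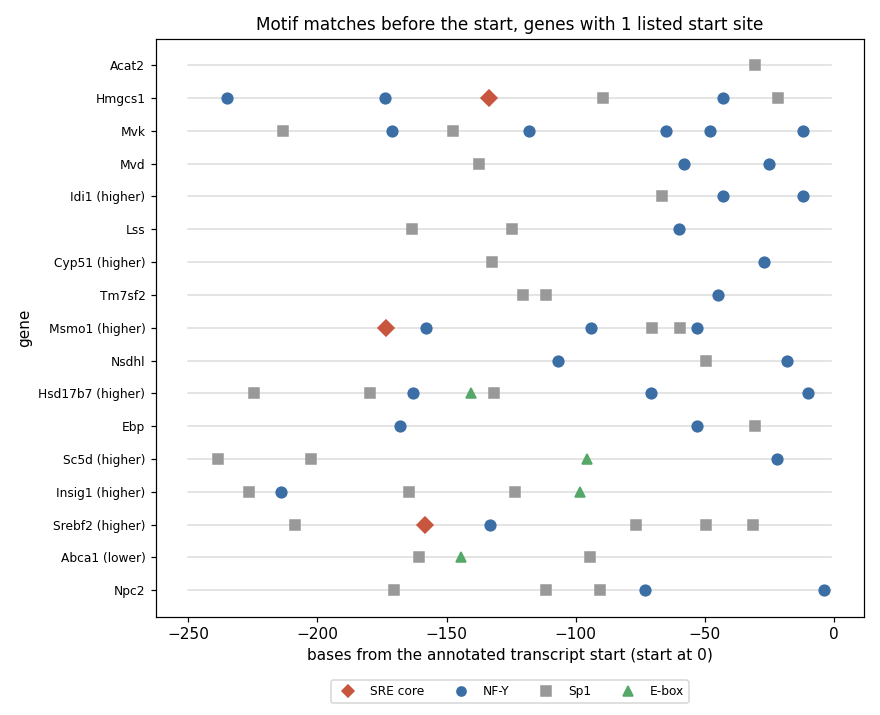
Positions of motif matches in the 250 bases before the start for the 17 listed genes with 1 start site in the RefSeq table. The horizontal axis is the distance in bases from the start, and each symbol is 1 match on either strand. CCAAT boxes (circles, NF-Y) appear in 15 of the 17 genes, with none in Acat2 or Abca1.

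Promoters were searched for all 22 genes with an entry, counting a gene if any of its listed starts held a match, over 30 starts in all. A CCAAT box was present in 19 of 22 genes (86.4%), against 37.5% of 27025 genes in the table. It was present in all 7 genes with an entry that were higher in knockout, in 9 of 10 that did not pass and in 1 of 2 that were lower, so it did not separate the genes that rose from those that did not pass. GGGCGG was present in 21 of 22 genes (95.5%), against 35.4% of all genes. The genes of the table were not matched to the listed genes for expression or base composition, so these gaps are not shown to be particular to the pathway. The core TCACNCCA was present in Hmgcs1, Msmo1 and Srebf2 (13.6%), against 4.20% of all genes, and the longer TCACNCCAC, which contains the core, in Hmgcs1 alone (TCACCCCAC at -137 to -129), against 1.22%. The E-box CACGTG was present in 6 of 22 genes (27.3%), against 6.86%. A match is a description of these letters and does not show binding, and the lack of a match does not show that an element is absent.

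Of the 25 measured genes, 10 were higher in knockout, 3 were lower and 12 did not pass (limma, Benjamini-Hochberg adjusted p under 0.05 over all genes). Those that rose were the enzyme genes Idi1, Fdps, Fdft1, Sqle, Cyp51, Msmo1, Hsd17b7 and Sc5d and the regulators Insig1 and Srebf2, and those that fell were Insig2, Abca1 and Npc1. Over all genes 11.9% were called, 5.06% higher and 6.89% lower, while 40.0% of the measured genes here were higher and 12% lower. Dim genes are called less often, so the shares were also taken among genes with a mean above the background range. There 10 of 22 genes (45.5%) were higher, against 10.1% of all such genes. The 3 that were lower made up 13.6%, against 13.5%, so the share that fell was near that of all such genes. The 3 values of each line did not overlap for 16 of the 25 genes (64.0%), against 27.4% of all genes. That 27.4% includes the dim genes, and it was not taken among genes above the background range, so this comparison is not matched for brightness. The median log2 difference was 0.13, against 0.01 over all genes. The genes were chosen with earlier results of these data known, so these contrasts are not independent support for a change of the pathway.

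**Figure D2:**
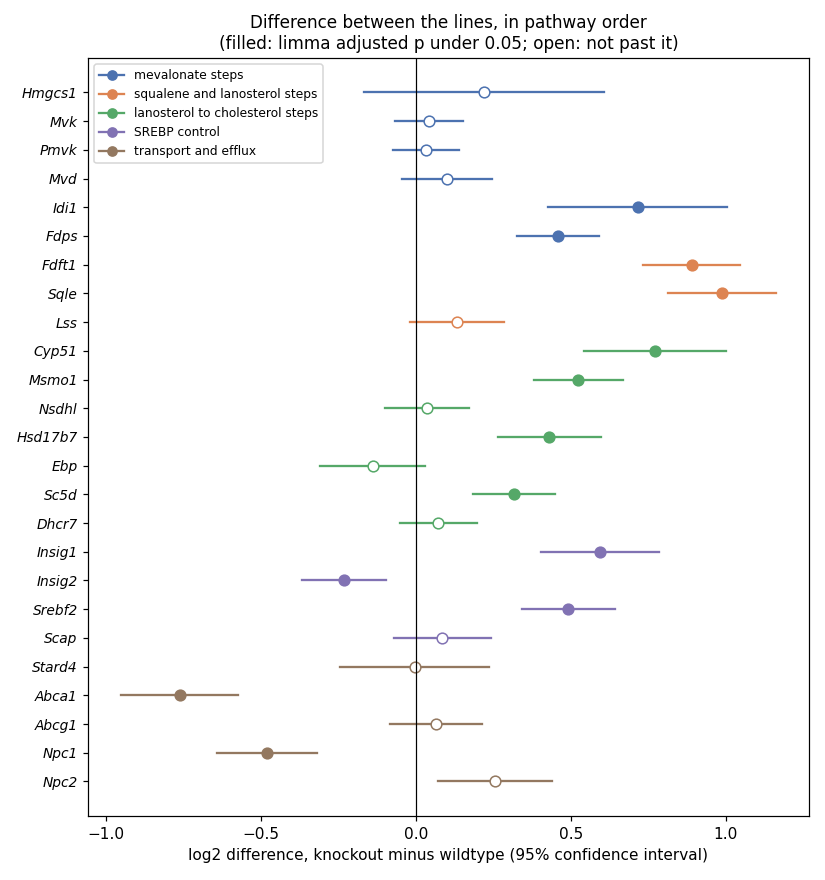
Log2 difference between the lines (knockout minus wildtype, horizontal axis) for the 25 measured genes in pathway order, with 95% confidence intervals from limma. Filled points passed the adjusted threshold. The 8 enzyme rises run from Idi1 to Sc5d with gaps at Lss, Nsdhl and Ebp, Insig1 and Srebf2 rose among the regulators, and the falls are Insig2, Abca1 and Npc1.

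The early mevalonate steps did not pass, and the isoprenoid steps that follow them rose. Hmgcs1, encoding the synthase that joins acetoacetyl-CoA with another acetyl-CoA, had log2 intensities of 10.30, 10.39 and 10.42 on wildtype arrays 1 to 3 and 10.78, 10.79 and 10.21 on knockout arrays 1 to 3. Knockout arrays 1 and 2 lay above all wildtype arrays and knockout array 3 below all of them, so the groups overlapped. The log2 difference was 0.22 (95% confidence interval -0.17 to 0.61, limma adjusted p = 0.543), and without knockout array 3 it was 0.41 (adjusted p = 0.0141). Mvk and Pmvk, the kinases that phosphorylate mevalonate in succession, differed by 0.04 (-0.07 to 0.15) and 0.03 (-0.07 to 0.14). Mvd, encoding the decarboxylase that yields the first isoprenoid unit, differed by 0.10 (-0.04 to 0.24), its knockout values of 8.22 to 8.28 lying just above wildtype values of 8.03 to 8.19.

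Idi1, whose product interconverts the isoprenoid building blocks, had log2 intensities of 7.21, 7.63 and 7.56 in wildtype and 8.17, 8.29 and 8.09 in knockout. All knockout values were above all wildtype values, and wildtype array 1 was the lowest of its line. The rise was 0.72 on the log2 scale (SE 0.12, limma adjusted p = 0.0116), 1.64-fold, from a wildtype mean within the background range. The call was lost without knockout array 1 (adjusted p = 0.0541) or knockout array 2 (adjusted p = 0.0561). Fdps, which encodes the enzyme that makes farnesyl diphosphate, the branch point to sterols and to protein prenylation, stood at 8.06, 8.18 and 8.20 in wildtype and 8.57, 8.60 and 8.64 in knockout. The groups did not overlap, and the rise was 0.46 (SE 0.05, limma adjusted p = 0.00311).

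The largest rises were at the entry to the sterol branch. Fdft1, encoding squalene synthase, which commits farnesyl diphosphate to sterols, had log2 intensities of 8.15, 8.10 and 8.14 in wildtype and 8.94, 8.97 and 9.15 in knockout. Every knockout value exceeded every wildtype value by more than the range within either line. The log2 difference was 0.89 (SE 0.07, limma adjusted p = 0.000432), 1.85-fold with a 95% confidence interval of 1.66 to 2.07. Sqle, encoding squalene epoxidase, a rate-limiting enzyme of the sterol branch, stood at 8.58, 8.83 and 8.69 in wildtype and 9.74, 9.64 and 9.68 in knockout. Its groups were again apart, and its log2 difference of 0.99 (SE 0.07, limma adjusted p = 0.000427) was the largest among the 25 genes, 1.98-fold (1.76 to 2.24). Lss, encoding the cyclase that closes squalene epoxide into lanosterol, did not pass. Its log2 intensities were 8.10, 8.30 and 8.18 in wildtype and 8.34, 8.34 and 8.29 in knockout, overlapping at wildtype array 2, with a difference of 0.13 (-0.02 to 0.28).

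Of the 7 measured genes that turn lanosterol into cholesterol, 4 rose, none fell and 3 did not pass. Over all genes 5.06% were higher and 6.89% lower, and above the background range 10.1% and 13.5%. Cyp51, the lanosterol demethylase gene, had log2 intensities of 9.44, 9.55 and 9.46 in wildtype and 10.40, 10.32 and 10.06 in knockout. The groups did not overlap, though knockout array 3 was the lowest of its line, and the rise was 0.77 (SE 0.09, limma adjusted p = 0.0035). Msmo1, encoding the oxygenase that starts removal of the methyl groups left on the ring, stood at 8.54, 8.73 and 8.67 in wildtype and 9.15, 9.16 and 9.20 in knockout, a rise of 0.52 (SE 0.06, limma adjusted p = 0.0025). Its knockout values were the closest together of the 10 genes that rose. Hsd17b7, encoding the ketone reductase of the same demethylation, stood at 9.21, 9.33 and 9.24 in wildtype and 9.66, 9.81 and 9.61 in knockout. Its rise of 0.43 (SE 0.07, limma adjusted p = 0.00967) lost its call without wildtype array 3 (adjusted p = 0.0546).

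Sc5d, encoding a desaturase of a late step, stood at 9.79, 9.88 and 9.80 in wildtype and 10.19, 10.17 and 10.06 in knockout. It rose by 0.32 (SE 0.06, limma adjusted p = 0.0136), the smallest of the rises, and lost its call without wildtype array 3 (adjusted p = 0.0721), knockout array 1 (0.0655) or knockout array 2 (0.065). The X-linked Nsdhl, encoding the dehydrogenase that acts between Msmo1 and Hsd17b7, differed by 0.04 (-0.10 to 0.17), and 4 of its 6 arrays carried the identical value 9.30. The X-linked Ebp, encoding a sterol isomerase, differed by -0.14 (-0.31 to 0.03), with both means within the background range. The median log2 difference over 1845 genes of the X chromosome was 0.0072. Dhcr7, encoding a reductase that completes cholesterol, differed by 0.07 (-0.05 to 0.20).

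**Figure D3:**
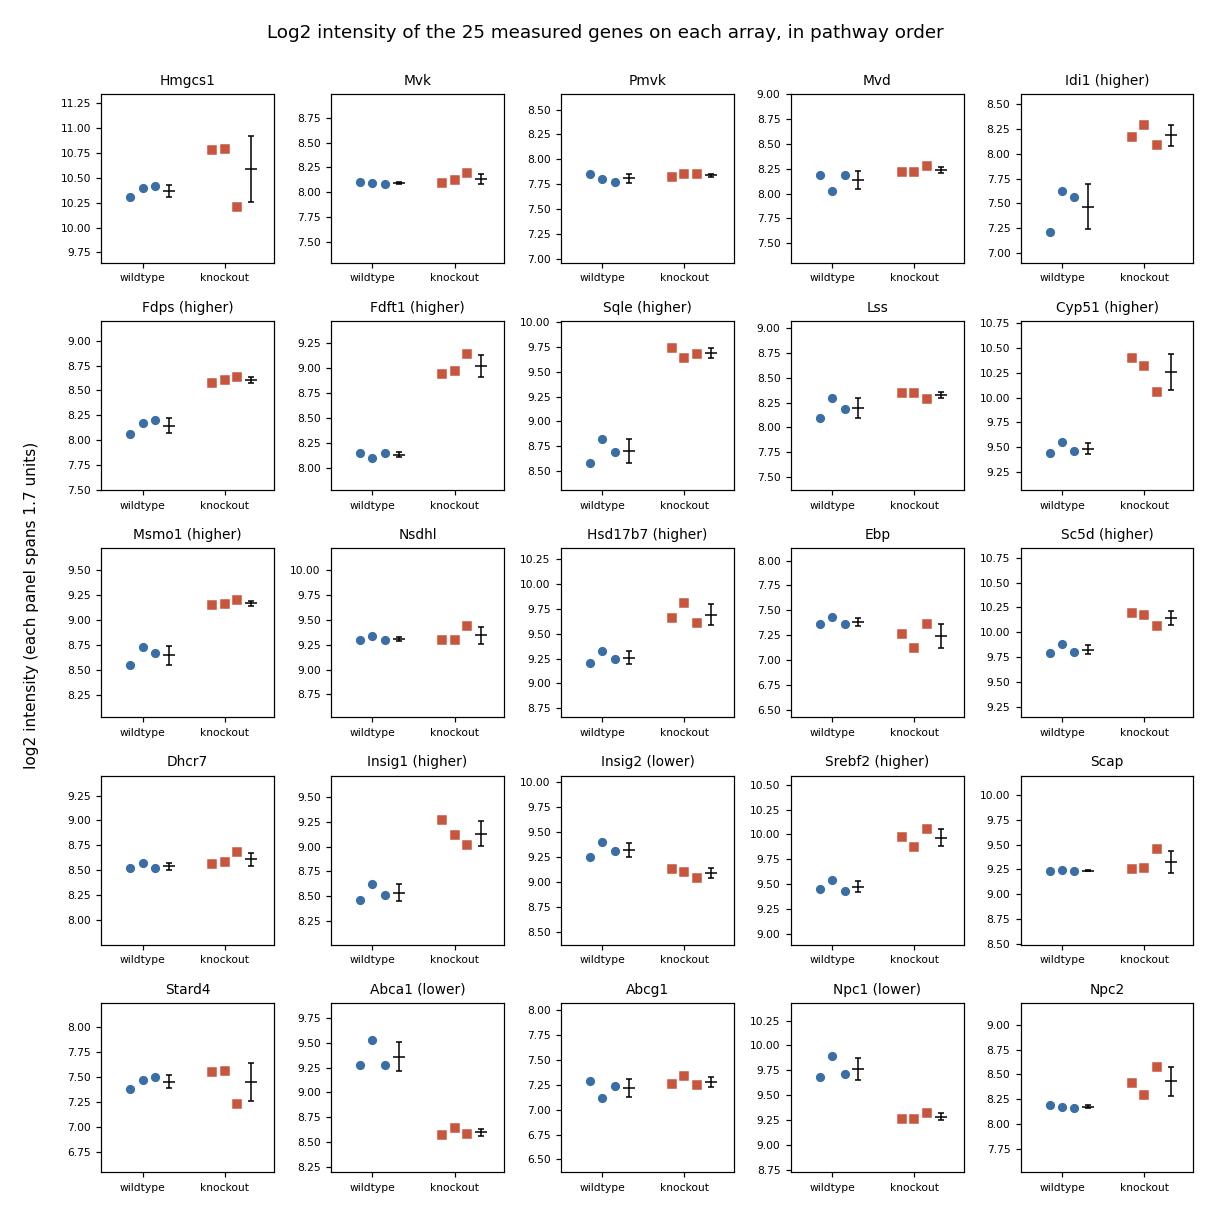
Log2 intensity on each of the 3 wildtype (circles) and 3 knockout (squares) arrays for the 25 measured genes in pathway order, arrays 1 to 3 from left to right. The bar beside each group is its mean ± SD (n = 3), every panel spans 1.7 log2 units around its own middle, and "higher" or "lower" marks genes past the adjusted threshold. Hmgcs1 and Stard4 show knockout array 3 apart from the other two knockout arrays.

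Over the 16 measured synthesis enzymes, 8 rose and none fell, and their median log2 difference was 0.27. For comparison, 5.06% of all genes were higher and 6.89% lower, with a median difference of 0.01. Among all genes above the background range, 10.1% were higher and 13.5% lower. The synthesis enzymes were listed with earlier results of these data known, so their excess of rises is not independent support. Their mean level was 8.54, 8.64 and 8.60 on wildtype arrays 1 to 3 and 8.95, 8.96 and 8.92 on knockout arrays 1 to 3. The mean separated the lines on every array, which restates the 8 rises averaged into it and is not separate support. It moved less among the replicates of a line than between the lines, and averaging over genes narrows the spread among replicates. The 8 enzyme genes that did not pass had differences from -0.14 (Ebp) to 0.22 (Hmgcs1). Among them Nsdhl changed sign without knockout array 3 (-0.0121).

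The regulators of SREBP moved in different directions. Srebf2, encoding SREBP-2, had log2 intensities of 9.45, 9.54 and 9.43 in wildtype and 9.98, 9.87 and 10.05 in knockout. The groups did not overlap, and the rise was 0.49 (SE 0.06, limma adjusted p = 0.00393), 1.41-fold. Insig1, itself a known SREBP target whose protein retains the SREBP escort, stood at 8.46, 8.63 and 8.52 in wildtype and 9.26, 9.12 and 9.01 in knockout, a rise of 0.59 (SE 0.08, limma adjusted p = 0.00467). Its close relative Insig2, which encodes a retention protein with the same role, stood at 9.25, 9.40 and 9.31 in wildtype and 9.13, 9.10 and 9.04 in knockout. All knockout values of Insig2 were below all wildtype values, and it fell by 0.23 (SE 0.06, limma adjusted p = 0.0462). This call was lost in 5 of the 6 fits without 1 array, every one but that without wildtype array 1 (adjusted p from 0.0394 to 0.151 over the 6). Scap, encoding the escort, differed by 0.09 (-0.07 to 0.24), with knockout array 3 at 9.45 and the other knockout arrays at 9.25 and 9.26, close to wildtype values of 9.23 to 9.25.

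Of the 5 genes of transport and efflux, Abca1 and Npc1 fell and 3 did not pass. Over all genes 6.89% were lower, and above the background range 13.5%, so a count this small is not read as a result about the list. Abca1, which encodes the pump that loads cellular cholesterol onto apolipoprotein A-I, had log2 intensities of 9.28, 9.53 and 9.28 in wildtype and 8.57, 8.64 and 8.58 in knockout. The lowest wildtype value was above the highest knockout value, and the log2 difference of -0.76 (SE 0.08, limma adjusted p = 0.00173) corresponds to a 1.7-fold lower level (95% confidence interval 1.49 to 1.93). Npc1, encoding the membrane protein that carries cholesterol out of lysosomes, stood at 9.68, 9.89 and 9.71 in wildtype and 9.26, 9.26 and 9.32 in knockout, and it fell by 0.48 (95% confidence interval of the difference -0.64 to -0.32, limma adjusted p = 0.00578). Its lysosomal partner Npc2, encoding the soluble carrier that hands cholesterol to the Npc1 protein, stood at 8.19, 8.17 and 8.16 in wildtype and 8.42, 8.29 and 8.58 in knockout. All its knockout values were above the wildtype values, but the difference of 0.25 (0.07 to 0.44) missed the threshold (limma adjusted p = 0.0911). Npc2 passed where dim genes were left out of the fit (adjusted p = 0.04). It passed in none of the fits without 1 array (adjusted p from 0.0548 to 0.257).

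Abcg1, encoding an exporter to high-density lipoprotein, differed by 0.07 (-0.08 to 0.21), with both means within the background range. Stard4, encoding a cytosolic sterol carrier, stood at 7.38, 7.47 and 7.5 in wildtype and 7.55, 7.56 and 7.23 in knockout, also within that range. Its knockout arrays 1 and 2 were above and array 3 below the wildtype values, so the mean difference of -0.0034 (-0.24 to 0.24) averages arrays that lay on both sides. Without knockout array 3 it was 0.11 (adjusted p = 0.426).

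The replicates of a line differed by amounts that varied from gene to gene. Knockout array 3 differed from the mean of the other knockout arrays by -0.58 at Hmgcs1, -0.33 at Stard4, -0.30 at Cyp51 and -0.18 at Insig1, and by 0.22 at Npc2, 0.20 at Scap and 0.19 at Fdft1. It was the highest knockout array for 12 and the lowest for 10 of the 25 genes, against 31.4% and 28.1% of all genes. In wildtype, array 2 was the highest for 16 and array 1 the lowest for 15 of the 25, against 33.5% and 29.2% of all genes. Wildtype array 1 was below the mean of the other wildtype arrays by 0.38 at Idi1 and 0.18 at Sqle. None of the 25 genes had 3 identical values within a line.

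**Figure D4:**
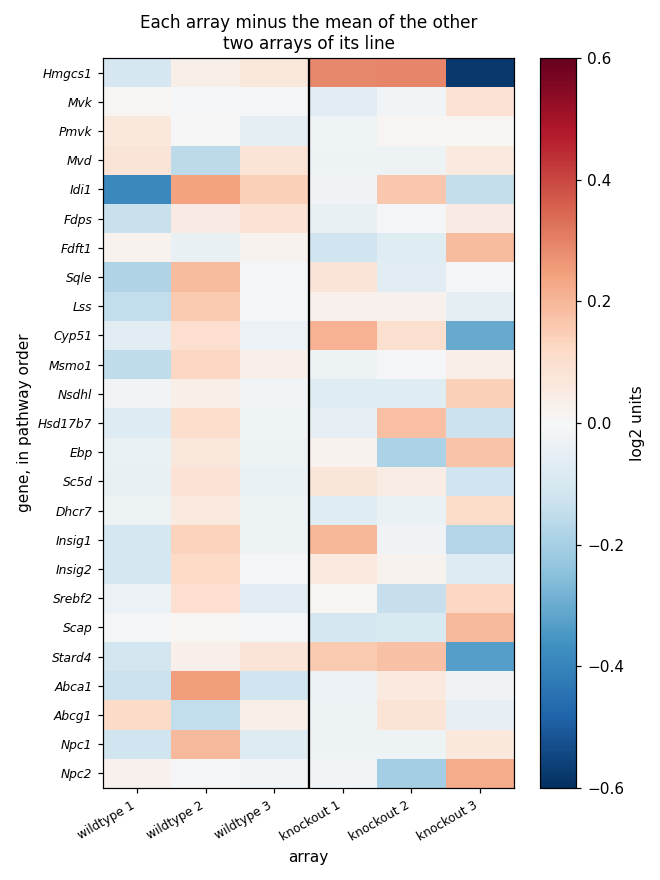
Difference of each array from the mean of the other two arrays of its line, in log2 units (colour, red above and blue below), for the 25 measured genes in pathway order (rows) and 6 arrays (columns). Hmgcs1 (-0.58) and Stard4 (-0.33) are the strongest blue cells of knockout array 3, and Idi1 (-0.38) that of wildtype array 1.

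Other genes of sterol and lipid metabolism did not rise as a body. Of 72 measured genes in 6 lists that excluded the genes above, 7 were higher, 18 lower and 47 did not pass, with a median log2 difference of -0.02. The share that was higher was 9.72%, against 5.06% of all genes, and the share that was lower was 25%, against 6.89%. Among the 55 above the background range, 6 were higher (10.9%, against 10.1% of all such genes) and 16 lower (29.1%, against 13.5%). Among 9 genes of the isoprenoid branches, which make dolichol, ubiquinone and the prenyl groups of proteins from the same precursors, only Coq2, a prenyltransferase gene of ubiquinone synthesis, passed, and it fell by 0.38 (limma adjusted p = 0.00415). Of 5 genes in a list set beside the synthesis enzymes, Acat1, encoding the mitochondrial thiolase, fell by 0.49. The retinol dehydrogenase gene Rdh11 fell by 0.34, and the other 3 did not pass. Neither Acat1 nor Rdh11 is counted as a step of cholesterol synthesis here. The call for Rdh11 was lost in 4 of the 6 fits without 1 array (adjusted p from 0.0768 to 0.0923 in those). Of 5 genes of SREBP processing only Rnf145, encoding a ubiquitin ligase of the endoplasmic reticulum that responds to sterols, passed. Its log2 intensities were 9.76, 9.90 and 9.84 in wildtype and 9.06, 8.97 and 8.93 in knockout, and it fell by 0.85 (SE 0.06, limma adjusted p = 0.000385).

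Genes of fatty acid synthesis, which are the main targets of SREBP-1, were called in both directions. Among the 14 on the array 2 rose, 2 fell and 10 stayed short of the threshold, with a median of -0.02. For comparison, 10.1% of all genes above the background range were higher and 13.5% lower. Counts this small are not read as a result about the list. Scd1, encoding the desaturase that makes monounsaturated fatty acids, had log2 intensities of 8.0, 8.26 and 8.15 in wildtype and 11.13, 11.16 and 11.17 in knockout. This rise of 3.02 (SE 0.07, limma adjusted p = 7.49e-06) was larger than that of any of the 25 genes, and it was 2.57 with its 2 probe sets averaged. Fads2, a desaturase gene of polyunsaturated fatty acids, fell by 0.70 (SE 0.05). The core enzyme genes Fasn, Acaca and Acly, chosen after their values were seen, differed by 0.11, -0.15 and 0.18 and did not pass (limma adjusted p = 0.215, 0.168 and 0.0533).

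Among 21 genes of sterol uptake, storage and transport 3 rose, 7 fell and 11 did not pass. The counts in this paragraph stand beside 5.06% higher and 6.89% lower over all genes. Above the background range these shares were 10.1% and 13.5%. Lrp1, encoding a large endocytic lipoprotein receptor, stood at 8.87, 8.99 and 8.77 in wildtype and 10.49, 10.40 and 10.59 in knockout, a rise of 1.62 (SE 0.08, limma adjusted p = 8.16e-05). Nceh1, encoding a cholesterol ester hydrolase, fell by 0.64 (SE 0.07). Scarb1, the receptor gene for high-density lipoprotein, fell by 0.49 and was chosen after its value was seen. Among 18 genes of LXR, efflux and oxysterols 2 rose, 5 fell and 11 did not pass. Smpdl3a, an LXR target gene in macrophages, rose by 1.58 from a wildtype mean within the background range, and Clu, encoding the apolipoprotein clusterin, fell by 1.14 (SE 0.14). The others that fell were all relatives of Abca1, namely Abca5 (-0.97), Abca2 (-0.71), Abca3 (-0.39) and Abca7 (-0.39). The knockout mean of Abca5 was within the background range (7.23). The other that rose was Mylip, an LXR target encoding a ligase that removes lipoprotein receptors (0.42). Mylip and these 4 relatives of Abca1 were chosen after their values were seen.

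**Figure D5:**
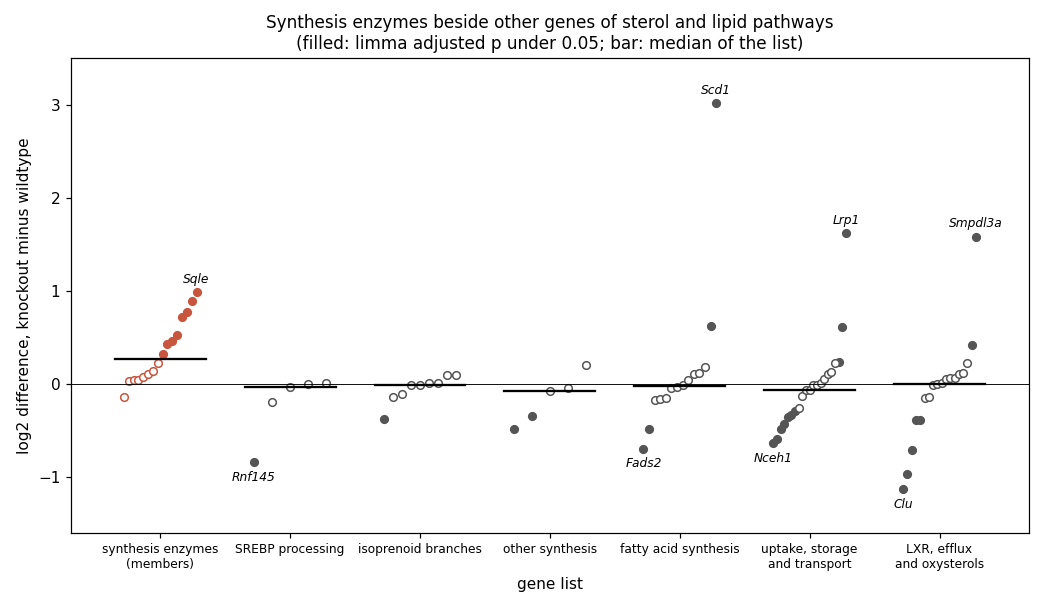
Log2 difference between the lines (knockout minus wildtype, vertical axis) for the 16 measured synthesis enzymes (left, red) and 6 lists of other sterol and lipid genes, each point 1 gene and filled where limma's adjusted p was under 0.05. Bars are list medians, 0.27 for the synthesis enzymes and between -0.08 and 0.0013 for the other lists, and Scd1 (3.02) and Lrp1 (1.62) stand highest.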

How the data were processed

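The authors deposited 1 log2 intensity per probe set and array. The submitters' processing notes name affy 1.44.0 and RMA. RMA corrects background, quantile-normalizes the arrays and summarises each probe set by median polish, which can give arrays identical values. Array medians ran from 6.73 to 6.81. For the genome build, probe definitions and filters, the answer is not given in the sources used here.

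Of 72688 probe sets, 31216 named 1 gene in the platform annotation, 1534 named several genes and were left unused, and 39938 were unnamed here. The RefSeq table of GRCm38.p6 gave current symbols by gene identifier and chromosomes, but no coordinates for probe sets, and synonyms of 1 gene counted as 1 name. The brightest probe set per gene was kept, giving 30745 genes. A probe set's level depends on its probes, so levels were not compared between genes. The 23 background probe sets had means from 2.33 to 7.78, and a mean at or below the highest is called within the background range, which holds 62.9% of genes and does not show that a gene is silent.

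Differences are knockout minus wildtype, fitted with limma 3.58.1 under R 4.3.3 (lmFit, eBayes, two-sided, no covariate, no filter) over all genes with Benjamini-Hochberg adjustment at 0.05. Means are given over 3 arrays, SEs and 95% confidence intervals are limma's, and precision is limited by the number of arrays. The script was tested on simulated data. The genes and lists were chosen with earlier results of these data known. All 28 listed genes are named, and of each other list the 2 largest differences past the threshold. Motifs were searched in 250 bases before each RefSeq start. Fdps, Fdft1, Sqle, Stard4, Abcg1 and Npc1 had no promoter entry. Python 3.11.15 with matplotlib 3.10.9 made the figures.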

Additional observations from a re-analysis of the deposited data

How the results depend on the processing

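The count of 10 higher and 3 lower genes among the 25 was the same with quantile normalization, the trended and robust variance model, probe sets averaged, genes with identical values left out, or chromosome medians taken off. It was 11 and 3 with dim genes left out, 8 and 2 at a threshold of 0.01, and 9 and 3 with single platform symbols only, an alternative added after seeing the data that leaves out Msmo1. Without 1 array it ran from 8 to 11 higher and 2 to 3 lower. Of 371 values of single genes under the alternatives, 348 kept their direction and side of the threshold, 15 lost the call, 2 gained it and 6 changed sign. The sign changed only where the difference was near 0, for Stard4 with quantile normalization (0.0067) and chromosome medians taken off (0.0075) and, over the fits without 1 array, for Stard4 (-0.062 to 0.106) and Nsdhl (-0.0121 to 0.0604).

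Over all genes, 3672 were called, 1555 higher and 2117 lower. A threshold of 0.01 gave 1945, 849 and 1096. Leaving out 1 array, so with fewer arrays in each fit, gave 2067 to 3386, 875 to 1452 and 1192 to 2008, depending on the array. The lowest of these, 2067, was without wildtype array 3, and 2228 and 2303 were called without knockout arrays 1 and 2. The 72 other pathway genes gave 20 to 27 calls without 1 array, against 25.

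The labels number the replicates 1 to 3 in both lines. Deviations of same-numbered arrays from their group means correlated at 0.35, 0.28 and 0.04 across genes, and knockout array 3 correlated best with wildtype array 2 (0.05), so the numbers were not taken as pairs. With the replicate block 10 of the 25 genes were higher and 2 lower, Insig2 being lost (adjusted p = 0.0799), and 3769 genes were called in all, 1660 higher and 2109 lower, with 6 higher and 18 lower among the other pathway genes.

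Genes within the background range, Ebp, Stard4 and Abcg1 in both lines and Idi1 in wildtype, limit what can be said of their differences. Among the other pathway genes named, the same holds for Abca5 in knockout and Smpdl3a in wildtype.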
